A study of Mus musculus with 8 samples.

Results

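The genes described here are 37 interferon-stimulated genes, chosen by name from the count table of mouse whole kidneys, which lists 55367 genes. All 37 were listed, and all 37 passed the filter on low counts that left 20149 genes for testing. RNA-Seq was performed on 4 c-Maf ΔTAM mice (labeled Maf conditional KO) and 4 c-Maf fl/fl mice (labeled Maf flox/flox) on the C57BL/6J background, and the labels give an age of 8 weeks for both groups. Both groups carried floxed c-Maf alleles and received tamoxifen (TAM), the drug that activates the Cre recombinase. The c-Maf ΔTAM mice also carried a TAM-inducible Cre transgene driven by the ubiquitous CAG promoter, so the deletion was not limited to one kidney cell type, and the c-Maf fl/fl mice lacked Cre. They are called ΔTAM and control mice below. The comparison asked how loss of c-Maf, a basic leucine zipper transcription factor, changed the kidney transcriptome. Because only the ΔTAM mice carried Cre, effects of activated Cre and of c-Maf loss cannot be told apart here.

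Interferons are secreted proteins that cells release after sensing viral or self nucleic acid. They bind receptors linked to the JAK kinases, which phosphorylate STAT proteins. A complex that holds STAT2 and IRF9 then binds the interferon-stimulated response element in promoters, and another promoter element of the response is the gamma-activated site. The induced genes encode nucleic acid sensors, proteins that block viral replication, chemokines, and regulators of the response itself, and many of them are expressed at a low level in tissue without infection.

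The loss of Maf transcripts was examined first. Maf was at 9.06, 34.5, 29.6, and 10.1 CPM (counts scaled to a common library size, with TMM factors that correct for library composition) in ΔTAM mice 1 to 4 against 379.9, 342.2, 305.4, and 351.1 CPM in control mice 1 to 4. The groups did not overlap, and the log2 fold change was -4.05 (SE 0.512, edgeR quasi-likelihood test, adjusted P = 0.0115). With any 1 mouse left out, Maf stayed past the threshold, but among the high-Xist mice alone its adjusted P was 0.108 (log2 fold change, -3.87). Totals ranged from 16649129 to 22990257 counts per mouse, and mitochondrial genes took 17.1% to 32.3% of the counts, with the highest share in ΔTAM mouse 1. Xist, the RNA made from the inactive X chromosome, was nearly missing from ΔTAM mouse 1 (2 counts) and from control mice 3 (6 counts) and 4 (22 counts), and the remaining 5 libraries held 17618 to 22387 counts of it. The labels do not give sex, so the comparison is also given among the other 5 mice, and with the Xist level as a covariate. A protocol label names liver as the RNA source, whereas the tissue label is whole kidney. Slc34a1, the phosphate transporter of proximal tubules, was at 1481 to 1972 CPM in ΔTAM and 3501 to 4532 CPM in control mice.

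As a group, the 37 genes were placed toward higher expression in ΔTAM kidneys. Log2 fold changes were above 0 in 35 of 37 genes, where 50.5% of all genes tested were above 0. The median was 0.36, a 1.28-fold higher level, with quartiles of 0.18 and 0.48, whereas the median over all genes was 0.00, with quartiles of -0.16 and 0.18. In 12 of the 37 genes all 4 ΔTAM mice were above all 4 control mice, and no gene had the opposite order. Over all genes tested, 4.17% had no overlap with ΔTAM higher and 5.62% had no overlap with ΔTAM lower. These 12 genes were Ddx58, Ifit1, Oas2, Ifih1, Irf7, Ifit3, Parp14, Stat2, Ifit2, Usp18, Oasl2, and Zbp1.

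The changes were small, and few genes passed the threshold one by one. At a Benjamini-Hochberg adjusted P under 0.05, 2 of the 37 genes were higher (Ddx58 and Ifit1) and 0 were lower. This compares with 0.586% of all genes higher and 1.58% lower. At an unadjusted P under 0.05, 18 of the 37 genes were higher and 0 were lower, against 6.58% of all genes higher and 7.44% lower. DESeq2 called 5 of the 37 genes higher and 0 lower, against 1.21% higher and 2.4% lower of the 23122 genes to which it gave an adjusted P. With any 1 mouse left out, 1 to 3 of the 37 genes were called higher, against 0.248% to 0.691% of all genes, and the count was 1 without ΔTAM mouse 3 or 4 or control mouse 2 or 4. The median SE of the log2 fold changes was 0.15, so a difference near the median of the 37 genes was about as large as the half-width of a typical 95% CI. In whole kidney, fewer cells of a type and less RNA per cell cannot be told apart.

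**Figure D1:**
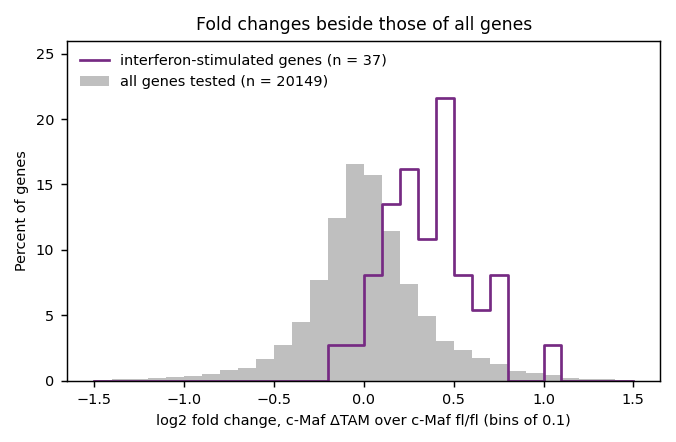
Percent of genes (vertical axis) in bins of log2 fold change of ΔTAM over control mice (horizontal axis, bins of 0.1) for the 37 interferon-stimulated genes (line) and the 20149 genes tested (gray). The line lies mostly to the right of 0, with a median of 0.36, and the gray bars center on 0.00.

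The same values were then summarized mouse by mouse, which restates the fold changes per mouse and is not separate support for them. When each gene was expressed as its deviation from its mean over the 8 mice, on the log2(CPM + 0.5) scale, the median over the 37 genes was 0.16, 0.11, 0.20, and 0.15 in ΔTAM mice 1 to 4. In control mice 1 to 4 it was -0.14, -0.17, -0.13, and -0.06. The 8 values did not overlap between genotypes, and the value closest to the other group was that of control mouse 4. The summed level of the 37 genes was 882 to 938 CPM in ΔTAM and 738 to 787 CPM in control mice. This separation depended on the TMM factors. As a share of all counts of a mouse, the 37 genes took 0.0802% to 0.0978% in ΔTAM and 0.0675% to 0.0804% in control mice. These shares overlapped, and the lowest ΔTAM share was that of mouse 1. Between 26 and 34 of the 37 genes were among the 4 highest of the 8 mice in each ΔTAM mouse, and between 5 and 12 were in each control mouse. Without ΔTAM mouse 1, which had low Xist and the highest mitochondrial share, the median log2 fold change was 0.33, 34 of 37 genes were above 0, and 3 genes were higher past the threshold, against 0.691% of all genes in that fit.

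**Figure D2:**
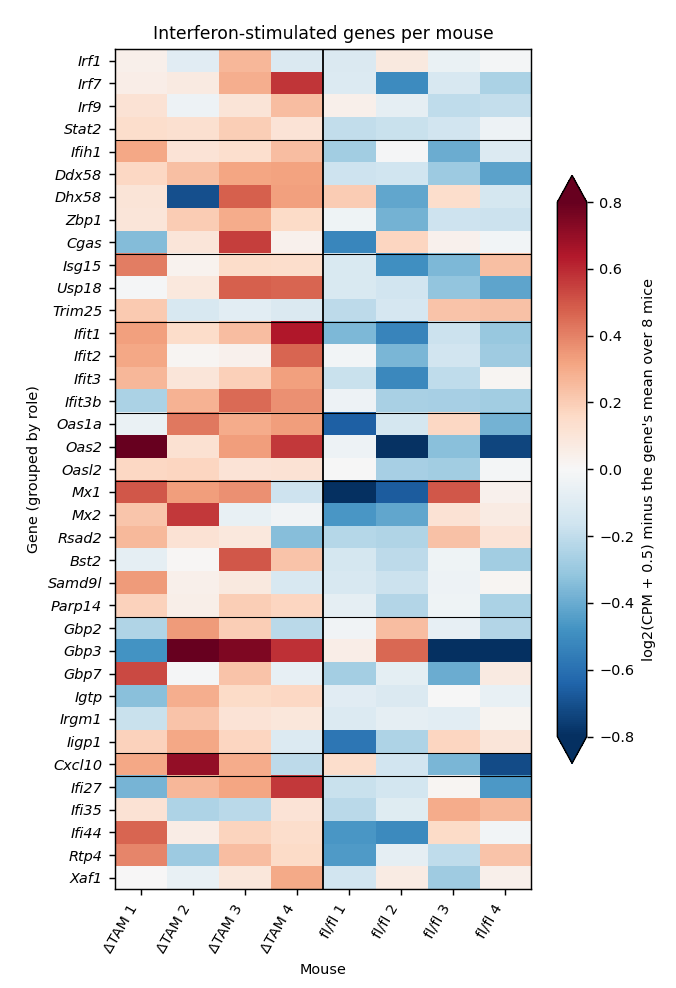
Deviation of each of the 37 genes (rows, grouped by role) in each mouse (columns) from the gene's mean over 8 mice, on the log2(CPM + 0.5) scale, with colors that saturate at 0.8 above or below the mean. The 4 ΔTAM columns are mostly red and the 4 control columns mostly blue, and 5 squares lie beyond the color scale, those of Gbp3 in ΔTAM mouse 2 and control mice 3 and 4, Oas2 in ΔTAM mouse 1, and Mx1 in control mouse 1.

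The promoters were examined for the response element and the gamma-activated site. Genes named as interferon-stimulated belong to a class that responds through such elements, so a high share was likely beforehand. The matches therefore do not bear on the difference between genotypes. A window of 300 bases (250 before to 50 after the transcription start, RefSeq, GRCm38.p6) was found for 27 of the 37 genes. The response element was searched as GAAANNGAAA, which reads TTTCNNTTTC on the other strand, and matches may overlap each other. It was present in 16 of 27 genes (59.3%), against 3.99% of 27025 genes with a window. At least 2 matches were present in 8 of the 27 genes, against 0.403% of all genes. The gamma-activated site, searched as TTCNNNGAA on both strands, was present in 7 of the 27 genes (25.9%) against 9.55% of all genes, and 4 genes had both. A match describes the letters of the window and does not show binding. A window without a match may still hold an element with other letters, and an element may lie outside the window.

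The windows below cover the matches of a chosen part of the genes with a response element match. Ddx58 and Ifit1 passed the threshold in the main fit. The Ifit3 and Ifit3b pair and the response genes Isg15, Stat2, Cxcl10, and Gbp3 did not. Capitals mark the bases of response elements, and every sequence is given 5′ to 3′ on the strand of its gene.
Ddx58 (chr4:40239804-40239833, minus strand): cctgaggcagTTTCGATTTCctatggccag
Ifit1 (chr19:34640775-34640823, plus strand): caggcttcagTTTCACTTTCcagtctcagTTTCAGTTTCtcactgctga
Ifit3 (chr19:34583363-34583426, plus strand): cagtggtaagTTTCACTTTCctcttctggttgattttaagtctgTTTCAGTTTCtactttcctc
Ifit3b (chr19:34607759-34607822, plus strand): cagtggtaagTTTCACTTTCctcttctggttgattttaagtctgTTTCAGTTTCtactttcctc
Isg15 (chr4:156200865-156200906, minus strand): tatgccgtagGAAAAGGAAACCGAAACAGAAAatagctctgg
Stat2 (chr10:128270266-128270295, plus strand): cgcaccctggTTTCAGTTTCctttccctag
Cxcl10 (chr5:92349083-92349112, minus strand): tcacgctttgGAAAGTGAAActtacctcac
Gbp3 (chr3:142559989-142560024, plus strand): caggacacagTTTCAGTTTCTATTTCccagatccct

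The matches lay at different distances from the start. In Ddx58 the match began 3 bases after the start, and in Ifit1 the matches began 104 and 85 bases before it. Isg15 held 3 overlapping matches between 78 and 66 bases before the start, and Gbp3 held 2 overlapping matches 45 and 39 bases before it. The windows of Ifit3 and Ifit3b were identical over all 64 bases shown. The median log2 fold change was 0.41 (range, 0.06 to 0.77) in the 16 genes with a response element match and 0.22 (range, -0.13 to 0.52) in the 11 genes without a match. The ranges of both sets overlapped. Genotypes did not overlap in 5 of the 16 and in 3 of the 11 genes, and the difference between the sets was not tested.

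**Figure D3:**
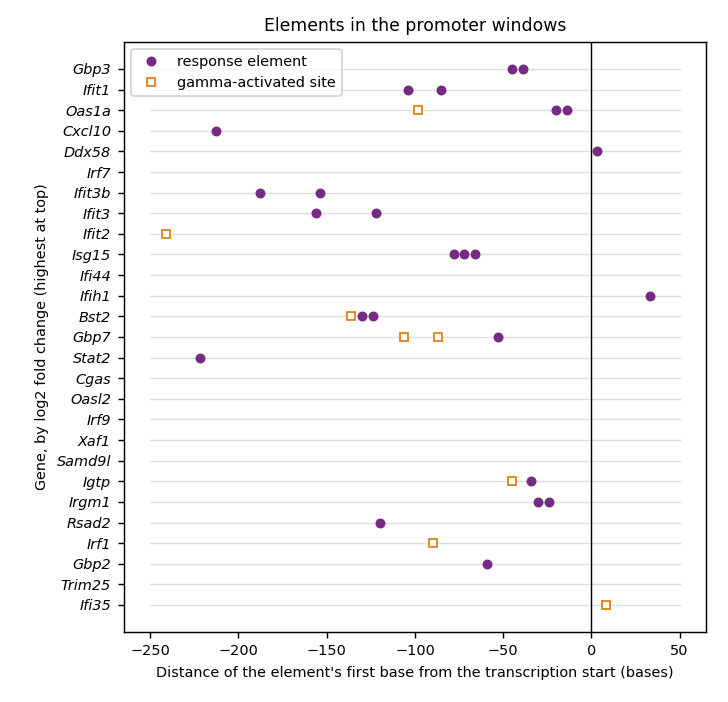
Position of response elements (filled points) and gamma-activated sites (open squares) in the promoter windows of 27 interferon-stimulated genes, with the distance of the first base from the transcription start in bases on the horizontal axis and genes ordered by log2 fold change, highest at the top. Matches lay from 241 bases before to 33 bases after the start, and Irf7 and Irf9 were among the genes with no match to either pattern.

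Nucleic acid sensors had log2 fold changes above 0 in all 5 members (median, 0.40), with 1 past the threshold and 3 with no overlap. Over all genes tested, 50.5% were above 0, 4.17% had no overlap with ΔTAM higher, and 0.586% were higher past the threshold. At an unadjusted P under 0.05, 6.58% were higher. These shares apply to every role group below, each group holds few genes, and no group was tested as a set. Ddx58 (chr4:40203773-40239828, minus strand, GRCm38) encodes RIG-I, the cytoplasmic sensor of viral RNA ends. It was at 44.3, 46.6, 49.2, and 49.4 CPM in ΔTAM mice 1 to 4 against 35.1, 35.3, 32.1, and 29.2 CPM in control mice 1 to 4. The lowest ΔTAM mouse was thus well above the highest control mouse. ΔTAM mice averaged 47.4 ± 2.39 CPM and control mice 32.9 ± 2.87 CPM (SD, n = 4 per genotype). The log2 fold change was 0.52 (95% CI, 0.33 to 0.72, SE 0.0883, edgeR adjusted P = 0.0089). An exact permutation test, which has 70 assignments here, gave a P of 0.0286, the smallest value this design allows. With any 1 mouse left out, Ddx58 stayed past the threshold.

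Ifih1, which encodes the long double-stranded RNA sensor MDA5, was at 28.1 to 32.5 CPM in ΔTAM and 19.7 to 26 CPM in control mice, without overlap (log2 fold change, 0.40, adjusted P = 0.0859). Zbp1, a sensor of left-handed nucleic acid, was at 3.21 to 3.77 and 2.17 to 2.89 CPM (0.43, adjusted P = 0.310). Dhx58, which encodes the regulatory helicase LGP2, was at 1.39 to 3.77 and 1.81 to 3.04 CPM, and the groups overlapped. Cgas, the cytoplasmic DNA sensor, was at 0.509, 0.873, 1.39, and 0.812 CPM in ΔTAM mice 1 to 4 against 0.392, 0.948, 0.812, and 0.762 CPM in control mice 1 to 4. The Cgas groups overlapped over most of their range, with 8 to 25 counts per mouse behind these levels (log2 fold change, 0.29, 95% CI, -0.57 to 1.15, adjusted P = 0.807). With 1 mouse left out, this value went from 0.0020 without ΔTAM mouse 3 and 0.08 without control mouse 1 to 0.48 without ΔTAM mouse 1.

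The IFIT genes encode proteins that bind foreign RNA and block its translation. All 4 had an unadjusted P under 0.05, with a median log2 fold change of 0.46. Ifit1 (chr19:34640871-34650009, plus strand) was at 13.7, 12.1, 13, and 17.2 CPM in ΔTAM mice 1 to 4 against 8.34, 7.36, 9.59, and 8.68 CPM in control mice 1 to 4. The groups did not overlap, and ΔTAM mouse 4 was the highest. ΔTAM mice averaged 14 ± 2.25 CPM and control mice 8.49 ± 0.922 CPM (SD, n = 4 per genotype). The log2 fold change was 0.72 (95% CI, 0.41 to 1.04, SE 0.144, edgeR adjusted P = 0.0229). The adjusted P rose to 0.0552 to 0.0751 when any of 5 mice was left out (ΔTAM mice 3 and 4 and control mice 1, 2, and 4).

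Ifit3 was at 21.9, 19.5, 20.8, and 23 CPM in ΔTAM mice 1 to 4 against 16.0, 12.5, 15.7, and 18.4 CPM in control mice 1 to 4. The groups did not overlap, and the log2 fold change was 0.44 (SE 0.123, adjusted P = 0.101). Its neighbor Ifit3b was at 5.49, 8.17, 9.26, and 8.72 CPM in ΔTAM mice 1 to 4 against 6.43, 5.46, 5.43, and 5.4 CPM in control mice 1 to 4. Here ΔTAM mouse 1 lay within the control range, and the other 3 lay above it (0.48, SE 0.178, adjusted P = 0.246). Of the 36-base sequences of Ifit3, 58.5% also occur in other genes, chiefly Ifit3b, and for Ifit3b the share was 52.2%, so the split of reads between this pair is uncertain. Ifit2, whose 36-base sequences were unique, was at 18.8 to 25.9 and 14.4 to 18.3 CPM without overlap (0.43, adjusted P = 0.135).

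The oligoadenylate synthetases make the messenger that activates RNase L, and all 3 had positive log2 fold changes (median, 0.64). Oas2 was at 7.07, 4.01, 4.71, and 5.63 CPM in ΔTAM mice 1 to 4 against 3.53, 1.90, 2.79, and 1.99 CPM in control mice 1 to 4. Every ΔTAM mouse was above every control mouse, and the log2 fold change over all 8 mice was 1.07, the highest of the 37 genes in that fit (95% CI, 0.52 to 1.61, SE 0.251). Its adjusted P was 0.0527, just outside the threshold, and it was inside with DESeq2 (0.00483). The fit of the 5 high-Xist mice put Oas2 at 0.82 (log2 fold change, adjusted P = 0.163), below those of Mx1, Oas1a, and Ifit1. Oasl2 was at 14.1 to 14.7 and 10.7 to 13 CPM, also without overlap (0.29, adjusted P = 0.278). Oas1a was at 1.37 to 2.11 and 0.736 to 1.67 CPM (0.64, adjusted P = 0.363), and 65.7% of its 36-base sequences are shared, chiefly with Oas1g, so its counts are uncertain.

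Among the transcription factors of the response, log2 fold changes were above 0 in all 4 (median, 0.25), and 2 had no overlap. Irf7, the factor that drives most interferon-α genes, was at 18.7, 18.9, 22.2, and 27.0 CPM in ΔTAM mice 1 to 4 against 16.7, 12.6, 16.4, and 15.1 CPM in control mice 1 to 4. All ΔTAM mice were above the control range (log2 fold change, 0.52, SE 0.141, adjusted P = 0.0953). Stat2, a subunit of the complex that binds the response element, was at 28.5, 28.3, 29.7, and 27.9 CPM in ΔTAM mice 1 to 4 against 22.5, 22.8, 23.2, and 25.1 CPM in control mice 1 to 4. The spread within each genotype was narrow, and the groups did not overlap (0.29, SE 0.0829, adjusted P = 0.111).

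Irf9, the DNA-binding subunit of that complex, was at 23.6, 21.2, 23.3, and 25.9 CPM in ΔTAM mice 1 to 4 against 22.3, 20.7, 18.8, and 19.0 CPM in control mice 1 to 4. The groups overlapped in the range from 21.2 to 22.3 CPM (log2 fold change, 0.22, adjusted P = 0.360). Irf1, which is induced chiefly by interferon-γ, was at 14.4, 13.1, 16.9, and 12.9 CPM in ΔTAM mice 1 to 4 against 12.9, 14.8, 13.4, and 13.8 CPM in control mice 1 to 4. The Irf1 groups overlapped, and only ΔTAM mouse 3 was above the control range, with a log2 fold change of 0.06 (95% CI, -0.20 to 0.32, adjusted P = 0.873). Strand was not used in counting, and 20% of the exonic bases of Irf1 overlap another gene.

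**Figure D4:**
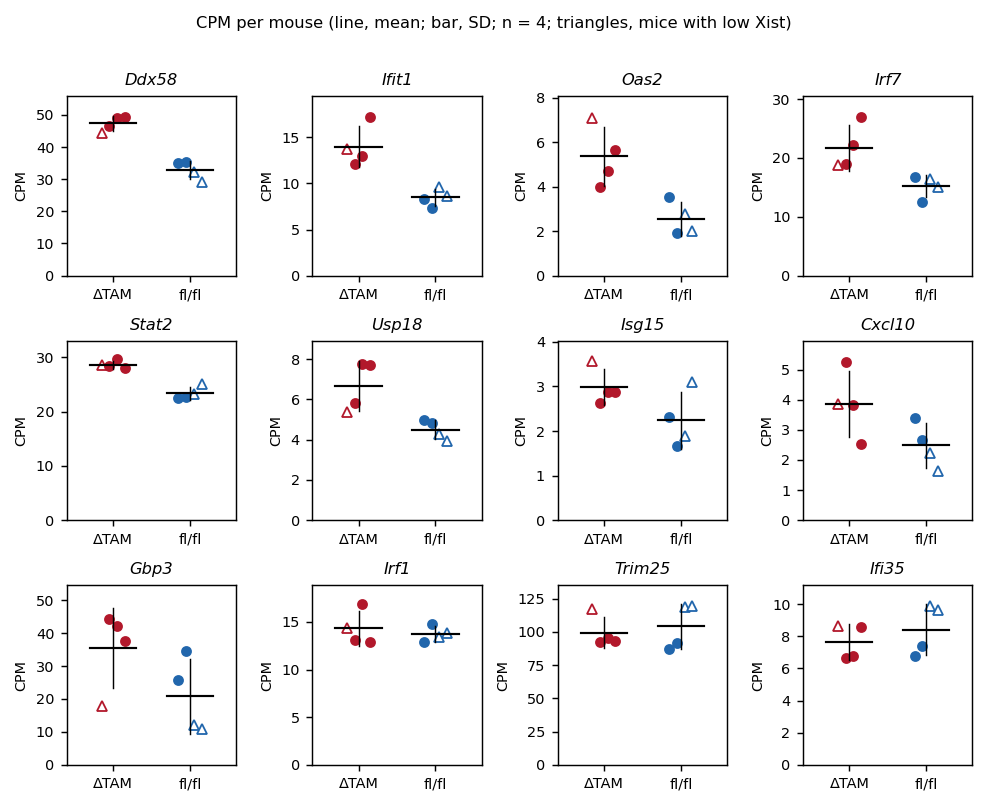
CPM per mouse (vertical axes, from 0) of 12 interferon-stimulated genes in 4 ΔTAM and 4 control mice, with lines for means, bars for SD, and triangles for the 3 mice with low Xist. Ddx58, Ifit1, Oas2, Irf7, Stat2, and Usp18 have no overlap between genotypes, and the 3 mice with low Xist hold the lowest values of Gbp3 and the highest values of Trim25 and Ifi35.

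In the ubiquitin-like modifier system, Isg15 encodes the modifier that is attached to proteins, and Usp18 encodes the protease that removes it and restrains receptor signaling. Usp18 was at 5.39, 5.80, 7.76, and 7.69 CPM in ΔTAM mice 1 to 4 against 4.95, 4.83, 4.26, and 3.93 CPM in control mice 1 to 4. The groups did not overlap (log2 fold change, 0.56, SE 0.176, adjusted P = 0.153). Isg15 was at 3.56, 2.62, 2.88, and 2.87 CPM in ΔTAM mice 1 to 4 against 2.31, 1.67, 1.88, and 3.11 CPM in control mice 1 to 4. Only control mouse 4 reached the ΔTAM range (0.42, 95% CI, -0.10 to 0.94, adjusted P = 0.470).

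Trim25, a ubiquitin ligase that acts on RIG-I, was 1 of the 2 genes with a log2 fold change below 0. It was at 116.8, 92.3, 95.3, and 93.1 CPM in ΔTAM mice 1 to 4 against 87.3, 91.8, 118.3, and 119.1 CPM in control mice 1 to 4 (-0.07, 95% CI, -0.34 to 0.20, adjusted P = 0.863). The 3 highest mice were those with low Xist, in both genotypes. Ifi35, an interferon-induced leucine zipper protein, was the other. It was at 8.65, 6.62, 6.77, and 8.61 CPM in ΔTAM mice 1 to 4 against 6.77, 7.40, 9.89, and 9.62 CPM in control mice 1 to 4, again with its 3 highest values in the mice with low Xist (-0.13, SE 0.17, adjusted P = 0.788). Of the exonic bases of Ifi35, 16.8% overlap another gene.

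Mx, viperin, tetherin, and other antiviral effectors were above 0 in all 6 members (median, 0.33), with 1 without overlap. Parp14, an ADP-ribosyltransferase, was at 43.2 to 47.9 CPM in ΔTAM and 34.9 to 40.8 CPM in control mice (0.30, adjusted P = 0.107). Mx1, a dynamin-like GTPase that blocks influenza virus, was at 1.32, 1.13, 1.16, and 0.650 CPM in ΔTAM mice 1 to 4 against 0.196, 0.316, 1.32, and 0.821 CPM in control mice 1 to 4. The groups overlapped, with 4 to 26 counts per mouse behind these levels (log2 fold change, 0.70, 95% CI, -0.41 to 1.81, adjusted P = 0.595). The 2 lowest values were those of the control mice with high Xist. The log2 fold change of Mx1 was 0.39 without control mouse 1, 0.46 without control mouse 2, and 1.30 without control mouse 3. It was 1.90 among the mice with high Xist (adjusted P = 0.111) and 1.07 with the Xist covariate (adjusted P = 0.175). Bst2, which encodes tetherin, was at 10.8 to 16.4 and 9.32 to 11.2 CPM (0.36, adjusted P = 0.293). Mx2, Rsad2, and Samd9l overlapped between genotypes, with log2 fold changes of 0.43, 0.06, and 0.17. With 1 mouse left out, Mx2 ran from 0.25 to 0.57, Rsad2 from -0.016 to 0.17, and Samd9l from 0.082 to 0.24. Per length in control mice, Samd9l was the most abundant of the 37 genes, at 37 CPM per kilobase. The least abundant there was Mx1, at 0.175, close to Cgas at 0.177. In ΔTAM mice Cgas was the least abundant, at 0.217, against 0.282 for Mx1.

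The interferon-inducible GTPases, which act on vacuoles that hold intracellular pathogens, were above 0 in all 6 members, with a median of 0.21 and no gene without overlap. Gbp3 was at 17.8, 44.5, 42.3, and 37.6 CPM in ΔTAM mice 1 to 4 against 25.9, 34.5, 12.2, and 10.7 CPM in control mice 1 to 4. The 3 lowest values, 10.7 to 17.8 CPM, were those of the mice with low Xist, and within each side of the Xist split the ΔTAM mice were above the control mice. The log2 fold change was 0.77 (95% CI, -0.34 to 1.87, adjusted P = 0.536) over all mice. When the Xist level entered the fit as a covariate, it was 0.59 (SE 0.121, adjusted P = 0.00737). The fit of the 5 high-Xist mice gave 0.45 (adjusted P = 0.0645), and Gbp3 did not pass the threshold under any other alternative or with any 1 mouse left out. Gbp7 had a log2 fold change of 0.36 (adjusted P = 0.307), and 14.1% of its 36-base sequences are shared with other genes. Iigp1, Igtp, Irgm1, and Gbp2 had log2 fold changes of 0.26, 0.16, 0.13, and 0.06, with adjusted P values from 0.532 to 0.922. With 1 mouse left out, Iigp1 ran from 0.13 to 0.38, Igtp from 0.081 to 0.28, Irgm1 from 0.074 to 0.21, and Gbp2 from -0.065 to 0.16.

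Cxcl10, the chemokine that attracts activated T cells, was at 3.87, 5.24, 3.83, and 2.54 CPM in ΔTAM mice 1 to 4 against 3.38, 2.66, 2.23, and 1.64 CPM in control mice 1 to 4. The groups overlapped, since ΔTAM mouse 4 was below 2 of the control mice (log2 fold change, 0.63, 95% CI, 0.05 to 1.22, SE 0.270, adjusted P = 0.317). Of the remaining interferon-induced proteins, Ifi27 and Ifi44 had an unadjusted P under 0.05. Ifi27, a mitochondrial protein, was at 17.8 to 34.5 and 16.7 to 23.5 CPM (0.42, adjusted P = 0.329). Ifi44 was at 14.1 to 18.9 and 9.34 to 15.1 CPM (0.42, adjusted P = 0.286). Rtp4 and Xaf1 had log2 fold changes of 0.28 and 0.18 with overlapping groups.

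**Figure D5:**
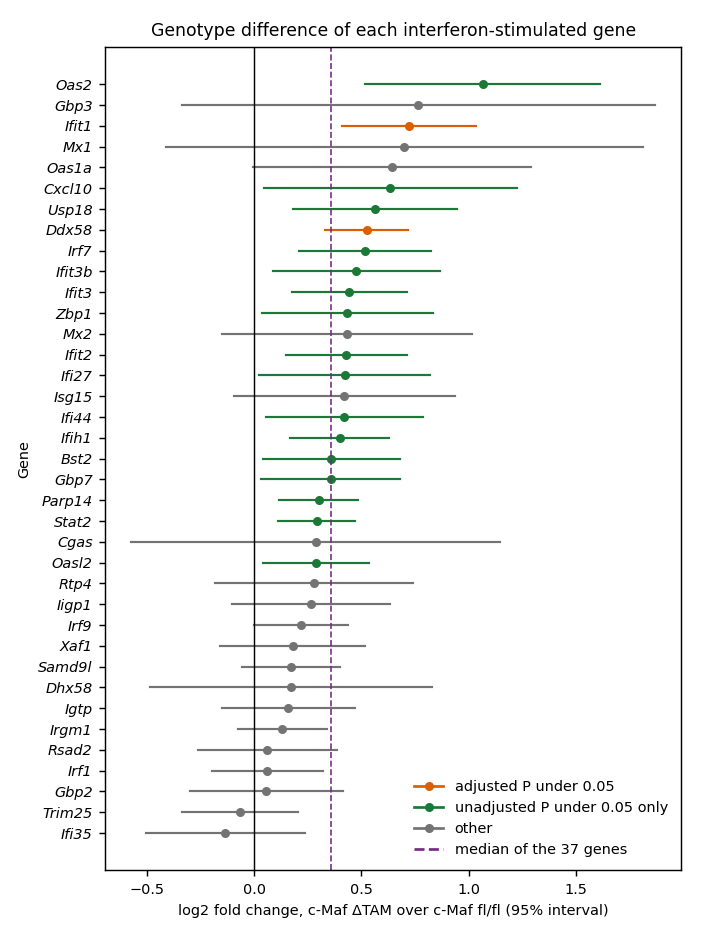
Log2 fold change of ΔTAM over control mice (points, horizontal axis) with 95% CI (bars) for each of the 37 genes, with color marking an adjusted P under 0.05, an unadjusted P under 0.05 only, or neither. The values run from -0.13 for Ifi35 to 1.07 for Oas2, the dashed line marks the median of 0.36, and 18 intervals lie above 0.

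The split by Xist did not run along the genotypes, so it was examined on both sides. Among the 5 mice with high Xist (3 ΔTAM and 2 c-Maf fl/fl), log2 fold changes were above 0 in 37 of 37 genes, with a median of 0.38, and 50.6% of all genes in that fit were above 0. In 27 genes all 3 ΔTAM mice were above both control mice, an order that 15.6% of all genes had. In that fit 5 genes were higher past the threshold, against 1.53% of the 21027 genes tested in it. They were Ddx58 (log2 fold change, 0.46, adjusted P = 0.00841), Ifit1 (0.84, adjusted P = 0.0144), Ifi27 (0.56, adjusted P = 0.0151), Ifi44 (0.64, adjusted P = 0.0190), and Ifit3 (0.56, adjusted P = 0.0406). Among the 3 mice with low Xist, no test was run because only 1 was ΔTAM. This mouse was above both control mice in 26 of the 37 genes (38.2% of all genes) and below both in 6 (37.6% of all genes).

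In a fit over all 8 mice that took the Xist level as a covariate, 11 of the 37 genes were higher past the threshold and 0 were lower, against 2.59% of all genes higher. They were Irf7, Stat2, Ifih1, Ddx58, Ifit1, Ifit2, Ifit3, Oas2, Parp14, Gbp3, and Ifi44. The median log2 fold change in that fit was 0.35, and 35 of 37 values were above 0.

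The genes upstream of the response were examined next, and genes from these lists other than the interferon receptor genes and those past the threshold were chosen for naming after their values were seen. Of 21 interferon genes listed, 14 had 0 counts in all 8 mice, and only Ifnk, an interferon of epithelial cells, had enough counts to be tested (log2 fold change, 0.05, adjusted P = 0.977). Ifnb1, the interferon-β gene, had 0 counts in every mouse. If counts were independent, this would allow up to 3 counts or 0.135 to 0.176 CPM per library (counting error only). The limit is higher here, because a fragment can add 2 counts. Ifng had 2 counts in each of ΔTAM mice 1 and 4 and 0 in the other 6 mice, and 25.9% of its exonic bases lie in exons of Gm49751, where shared reads were not counted. A count of 0 does not always mean a missing transcript in this table: Trex1, which degrades cytoplasmic DNA, had 0 counts in every mouse, and 100% of its exonic bases lie in exons of Atrip, whose shared reads were not counted. None of the 14 interferon genes had such an overlap, but 12 of them shared over 10% of their 36-base sequences with other genes, and how reads that map to several places were treated was not tested. Ifnb1 shared 0%. Apart from Ifnk, a genotype difference in interferon transcripts was thus not detectable in these counts.

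Of the receptors and their kinases, 0 of 9 genes passed the threshold (median log2 fold change, 0.07). One of them, Jak2, had an unadjusted P under 0.05 (0.29, adjusted P = 0.0913). Ifnar1 and Ifnar2, the subunits of the type I interferon receptor, had log2 fold changes of 0.05 (95% CI, -0.10 to 0.21) and 0.07 (-0.17 to 0.32). Ifngr1 and Ifngr2, the interferon-γ receptor subunits, were at -0.16 (-0.47 to 0.14) and 0.20 (-0.08 to 0.47). Ifnlr1, of the interferon-λ receptor, was at 0.23 (-0.53 to 0.98). Of 6 signal transducers and regulatory factors outside the 37 genes, 0 passed the threshold, and the median was -0.03. Irf8, a factor of myeloid cells, was at 7.94 to 13.9 and 14.7 to 15.9 CPM, with no overlap and ΔTAM lower (-0.47, adjusted P = 0.20).

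Of 12 genes of the sensing pathway outside the 37, 0 passed the threshold, with a median log2 fold change of 0.08. Tlr3, the endosomal sensor of double-stranded RNA, was at 11.3 to 13 and 8.32 to 8.93 CPM without overlap (0.46, SE 0.114, adjusted P = 0.0617). Of 8 negative regulators tested, 0 passed the threshold, and the median was 0.01. Of 55 other interferon-induced genes, 51 were tested, and 41 of these had a log2 fold change above 0 (median, 0.21), as did 50.5% of all genes. In this list 12 genes were higher and 0 lower at an unadjusted P under 0.05, and 7 had no overlap with ΔTAM higher, against 6.58% of all genes higher at that P and 4.17% without overlap. The gene past the threshold was Lgals3bp, a secreted scavenger receptor protein, at 76.3, 87.0, 93.6, and 114.6 CPM in ΔTAM mice 1 to 4 and 70.2, 62.9, 52.1, and 55.9 CPM in control mice 1 to 4. The Lgals3bp groups did not overlap (log2 fold change, 0.62, SE 0.131, adjusted P = 0.0310), but without ΔTAM mouse 2, 3, or 4 or control mouse 2, 3, or 4, its adjusted P was 0.0629 to 0.103.

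Markers of the cell types that carry or produce an interferon response were compared in the same way. Of 11 macrophage markers tested, 0 passed the threshold, 9 had a log2 fold change above 0 (50.5% of all genes did), and the median was 0.24. Csf1r, Lyz2, Cx3cr1, and Cd14 had an unadjusted P under 0.05, all higher (6.58% of all genes were), and the macrophage marker Mrc1 was at -0.32. The summed macrophage marker level was 138 to 153 CPM in ΔTAM and 116 to 132 CPM in control mice, without overlap. With TMM factors, the summed macrophage markers and the summed 37 genes were thus both higher in every ΔTAM mouse. The part of macrophages in the result was not tested. Of 3 plasmacytoid dendritic cell markers, Siglech was lower at an unadjusted P under 0.05 (-0.99, adjusted P = 0.341), Ccr9 and Ly6d were at 0.13 and 0.31, and the summed level was 2.93 to 4.12 against 2.57 to 5.63 CPM.

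Lymphocyte and neutrophil markers were low in all mice. The summed level was 4.58 to 7.76 against 2.93 to 5.63 CPM for T and NK cell markers, of which 4 of 11 were tested, and 0.665 to 1.54 against 1.17 to 1.96 CPM for B cell markers, of which 1 of 4 was tested. Neutrophil markers summed to 1.52 to 2.34 against 0.589 to 1.67 CPM, with 1 of 5 tested. That marker, Csf3r, was higher in every ΔTAM mouse than in any control mouse (log2 fold change, 0.76, unadjusted P = 0.0476, adjusted P = 0.351). The 4 T and NK cell markers tested had log2 fold changes above 0 (50.5% of all genes did), with a median of 0.36 and 0 past an unadjusted P of 0.05. The part of these cells in the result was not tested. The 8 endothelial markers summed to 656 to 711 against 663 to 805 CPM, with 3 of 8 log2 fold changes above 0 and a median of -0.08. One of them, Kdr, the main receptor for vascular endothelial growth factor, was lower past the threshold (log2 fold change, -0.37, SE 0.0851, adjusted P = 0.0450). Without any 1 mouse, the adjusted P of Kdr was 0.0552 to 0.138. The 9 kidney tubule and glomerulus markers summed to 10385 to 16056 CPM in ΔTAM mice, below the 16692 to 19288 CPM of control mice without overlap, and 4 of 9 log2 fold changes were above 0 (median, -0.03). Without Slc34a1 the sums were 8638 to 14084 against 12159 to 15395 CPM, and they overlapped. Slc34a1 was lower (-1.23, SE 0.123, adjusted P = 0.000217), and the other 8 did not pass the threshold. The part of tubule and endothelial cells in the result was not tested.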

How the data were processed

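RNA from whole kidneys was depleted of rRNA, converted to strand-marked libraries, and sequenced as paired reads. The authors deposited whole-number counts per gene name, made per the file header with featureCounts 2.0.1 on the exons of Ensembl 102 (GRCm38), without normalization. The submitters' processing notes name Subread 2.0.2 and edgeR 3.36.0. Each read of a pair was counted separately, strand was ignored, and reads on exons of more than 1 gene were not counted, so that a fragment can add 2 counts and overlapping genes lose reads. The aligner is not given in the sources used here. The study's own values came from another route (CLC Genomics Workbench) that was not repeated.

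From the deposited counts, genes were kept by filterByExpr, scaled by TMM, and tested with edgeR 4.0.16 (robust quasi-likelihood fit, no covariates, limma 3.58.1, R 4.3.3), with Benjamini-Hochberg adjustment over all 20149 genes tested. Fold changes are c-Maf ΔTAM over c-Maf fl/fl (control), SE was derived from the fold change and the F value of the test, and permutation tests were two-sided and exact. Each mouse was 1 replicate, and no 2 mice of a genotype matched within sampling noise (chi-square per degree of freedom, 5.48 to 109). The 37 genes, the pathway and marker lists, and the tests were chosen with earlier results of these data known. Values per mouse are given for Maf, the called genes, the 4 genes with the largest fold changes in each direction (only 2 were below 0), and a fixed set of response genes. Sequences shared between genes were counted as 36-base words in GENCODE transcripts, overlapping exons from the deposited coordinates, and promoters from RefSeq (GRCm38.p6). Promoters of 10 of the 37 genes were not analysed here. One gene of the pathway lists is not reported here. Alternatives were RLE and upper-quartile factors, DESeq2 1.42.0, edgeR's exact test, 2 other filters, a replicate block, the Xist level as a covariate, the mice with high Xist alone, and each mouse left out. On simulated counts (19817 genes, 200 changed), the test recovered 76.8% of 2-fold and 97.7% of 4-fold changes and 4 of its 176 calls were false. Every simulated gene had the same dispersion, and smaller changes were not simulated. Recovery of changes near the 1.28-fold median of the 37 genes was therefore not measured. Matplotlib 3.10.9 was used for plots.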

Additional observations from a re-analysis of the deposited data

Results flagged for a closer look

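Of the 76 groups of 4 values examined (37 interferon-stimulated genes and Maf in 2 genotypes), 3 held a mouse whose gap to its nearest neighbor was past Dixon's 95% limit as a share of the group's range, and chance alone flags about 1 in 20 groups, or 3.8 here. Trim25 was at 116.8 CPM in ΔTAM mouse 1 against 92.3 to 95.3 CPM in the other 3, a gap of 0.88 of the range, and this mouse is the one with low Xist. Ifit3b was at 6.43 CPM in control mouse 1 against 5.4 to 5.46 CPM (0.935 of the range). Parp14 was at 43.2 CPM in ΔTAM mouse 2 against 47.1 to 47.9 CPM (0.837 of the range), which was still above all control mice.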

How the results depend on the processing

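The number of the 37 genes called higher was 2 with TMM factors, where 0.586% of all genes were called higher. It was 5 with DESeq2 (1.21% of all genes), 4 with all genes of at least 1 count (0.505%), 11 with the Xist level as a covariate (2.59%), 5 among the mice with high Xist (1.53%), and 0 with the replicate block (0.0893%, or 18 genes). With any 1 mouse left out it was 1 to 3 (0.248% to 0.691%), and it was 1 without ΔTAM mouse 3 (0.248%), ΔTAM mouse 4 (0.544%), control mouse 2 (0.361%), or control mouse 4 (0.388%). No gene of the 37 was called lower under any alternative. The median log2 fold change was 0.40 with upper-quartile factors, which moved the median of all genes to 0.05, and 0.33 to 0.41 with 1 mouse left out. In the replicate block, Ddx58 had an adjusted P of 0.110, Ifit1 of 0.107, and Lgals3bp of 0.206. Same-numbered mice did not deviate together (correlations of -0.44, 0.19, -0.14, and -0.40), so the numbers do not pair the mice. Maf was at -4.28 with the replicate block (adjusted P = 0.0516) and -3.87 among the mice with high Xist (adjusted P = 0.108). Signs turned for Trim25 (0.0082 with the Xist covariate and 0.062 among mice with high Xist), Gbp2 (-0.0063 with the Xist covariate), and Ifi35 (0.047 among mice with high Xist). With 1 mouse left out, ranges that crossed 0 were -0.029 to 0.11 for Irf1, -0.15 to 0.0072 for Trim25, -0.016 to 0.17 for Rsad2, -0.065 to 0.16 for Gbp2, -0.0052 to 0.14 for Ifnar2, and -0.076 to 0.54 for Ifnlr1. The other 32 of the 37 genes kept their direction under every alternative in which they were tested (35 of the 37 had at least 10 counts in every mouse). The cause of these shifts was not tested. Depth limits Mx1, Cgas, and 10 other genes with under 100 counts in some mouse.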
